A study of Mus musculus with 2 samples.

Results

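Cytochrome P450 enzymes were read from kidney RNA of mice with cystic kidneys and of control mice. The genes were taken by a rule on names that uses no values, though members were chosen with earlier results of these data known. A probe set counted when the platform annotation gave it a single gene. The symbol of that gene had to have the form Cyp, a family number, a subfamily letter and a gene number. This gave 71 P450 genes, with 94 probe sets, out of 18193 genes named on the array. They fall into 15 families, of which Cyp2 holds 35 genes and Cyp4 holds 12. The sterol demethylase Cyp51 lies outside the rule.

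The cystic kidney came from inv/inv mice, which carry the inv mutation of Invs on both alleles and model nephronophthisis type 2, and the control kidney had normal Invs alleles (+/+). Both carried the inv-deltaC::GFP transgene, which encodes inversin without its C-terminus, so the control was not free of the transgene. The promoter that drives the transgene was not given in the sources used here. Each genotype was measured on 1 Affymetrix array of the 430 type from whole kidney RNA, at 4 weeks of age by the series design (28 days on the cystic label), which speaks of 2 kidneys without saying how many animals gave the RNA of an array. With 1 array per group there was no replicate and no test, and the number of arrays limits the precision.

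Cytochrome P450 enzymes hold a haem group and insert oxygen into small molecules, most of them in the endoplasmic reticulum and some in mitochondria. They take electrons from cytochrome P450 reductase and cytochrome b5, or in mitochondria from ferredoxin. In the kidney many of them sit in the proximal tubule, where they oxidise fatty acids and drugs, turn arachidonic acid into epoxides and hydroxylated products that act on salt transport and blood flow, and activate or break down vitamin D.

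The promoters shown here belong to the members with the largest falls, Cyp4b1, Cyp2j13 and Cyp2j11, and to Cyp1b1, the member with the largest rise. Each is the 250 bases before the RefSeq transcription start, 5′ to 3′ on the gene's strand in GRCm38.p6, all on the minus strand. Capitals mark matches to the motifs listed further on, here only the core GCGTG to which the Ah receptor binds, which in Cyp1b1 lies on the opposite strand and so reads as its reverse complement. The windows are chr4:115647722-115647971 for Cyp4b1, chr4:96077541-96077790 for Cyp2j13, chr4:96348681-96348930 for Cyp2j11 and chr17:79715062-79715311 for Cyp1b1.
Cyp4b1: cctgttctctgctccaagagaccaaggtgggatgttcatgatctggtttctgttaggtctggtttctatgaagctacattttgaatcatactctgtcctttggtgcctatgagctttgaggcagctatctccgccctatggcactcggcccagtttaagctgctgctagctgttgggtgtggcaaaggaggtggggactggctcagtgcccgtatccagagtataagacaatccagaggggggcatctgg
Cyp2j13: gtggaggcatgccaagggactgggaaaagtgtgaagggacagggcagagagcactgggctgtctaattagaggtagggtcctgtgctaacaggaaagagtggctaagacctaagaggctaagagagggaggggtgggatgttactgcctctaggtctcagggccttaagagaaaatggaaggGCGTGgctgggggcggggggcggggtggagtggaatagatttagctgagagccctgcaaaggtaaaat
Cyp2j11: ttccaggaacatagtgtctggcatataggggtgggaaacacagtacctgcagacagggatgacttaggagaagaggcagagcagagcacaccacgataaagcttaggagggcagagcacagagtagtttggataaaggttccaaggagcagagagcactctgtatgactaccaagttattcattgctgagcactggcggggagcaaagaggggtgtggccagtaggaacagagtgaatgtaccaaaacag
Cyp1b1: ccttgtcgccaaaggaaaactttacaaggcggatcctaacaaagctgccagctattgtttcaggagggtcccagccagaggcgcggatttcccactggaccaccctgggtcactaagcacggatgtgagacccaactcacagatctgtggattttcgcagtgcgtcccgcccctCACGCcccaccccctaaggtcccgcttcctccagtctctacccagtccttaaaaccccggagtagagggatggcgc

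The values are linear MAS5 signals, and a level of one probe set is not comparable with that of another. As a floor, the median signal of each array was taken, 55.4 on the control and 61.9 on the cystic array. A gene was called measured when its brightest probe set reached the floor on at least 1 array. A signal under the floor was raised to it, and the resulting ratio is a bound, written as "at least". Log2 ratios are cystic minus control, and the words rose and fell are kept for differences of at least 2-fold. The only error estimate is technical: log2 ratios varied between probe sets of one gene with a pooled SD of 0.29 (4694 genes), and of 0.35 over the 6 P450 genes that could be read so.

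The labels call the cystic mouse female and give no sex for the control, and the signals of the library labelled female go against its label. Xist, the RNA that silences one X chromosome in female cells, had signals of 387 in control and 57.4 in cystic kidney at its brightest probe set, and of 282 and 2.3 at the second. The Y-linked genes Eif2s3y, Kdm5d and Uty were above both floors: Eif2s3y had 132 on the control and 142 on the cystic array, Kdm5d 152 and 194, and Uty 206 and 198. Usp9y, also on the Y chromosome, and Tsix, the antisense partner of Xist, were under the floor on both. The control array thus held both Xist and Y-linked signal above its floor, and how many animals, and of which sex, gave its RNA is not stated in the labels. The brightest Invs probe set, for the mutated gene, had 118 and 15.9, at least 1.91-fold lower. Several renal P450 genes are known to differ between male and female mice, and the part of sex in the differences given here was not tested.

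Of the 71 P450 genes, 35 were measured, 23 of them on both arrays, 8 on the control array only and 4 on the cystic array only. In the cystic kidney 6 fell and 2 rose. The 6 were Cyp4b1, Cyp2j13, Cyp2j11, Cyp4a14, Cyp2d26 and Cyp26b1, and the 2 were Cyp1b1 and Cyp4a12a. Among all 12015 measured genes 3.78% fell and 7.06% rose, so the share of P450 genes that fell (17.1%) was above that of all genes and the share that rose (5.71%) was close to it. The median log2 ratio of the 35 was -0.12, against 0.09 for all measured genes, and 19 of them (54.3%) were below 0, against 42.1% of all. For a gene read on 1 array the floor largely sets the sign of the ratio, so these shares and medians describe the arrays and support no statement about direction. Of the 23 genes that reached both floors, 13 had a log2 ratio below 0 and 10 above 0. Of these 23, 4 fell and 1 rose. Of all 10668 genes so measured, 424 fell (3.97%) and 656 rose (6.15%).

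**Figure D1:**
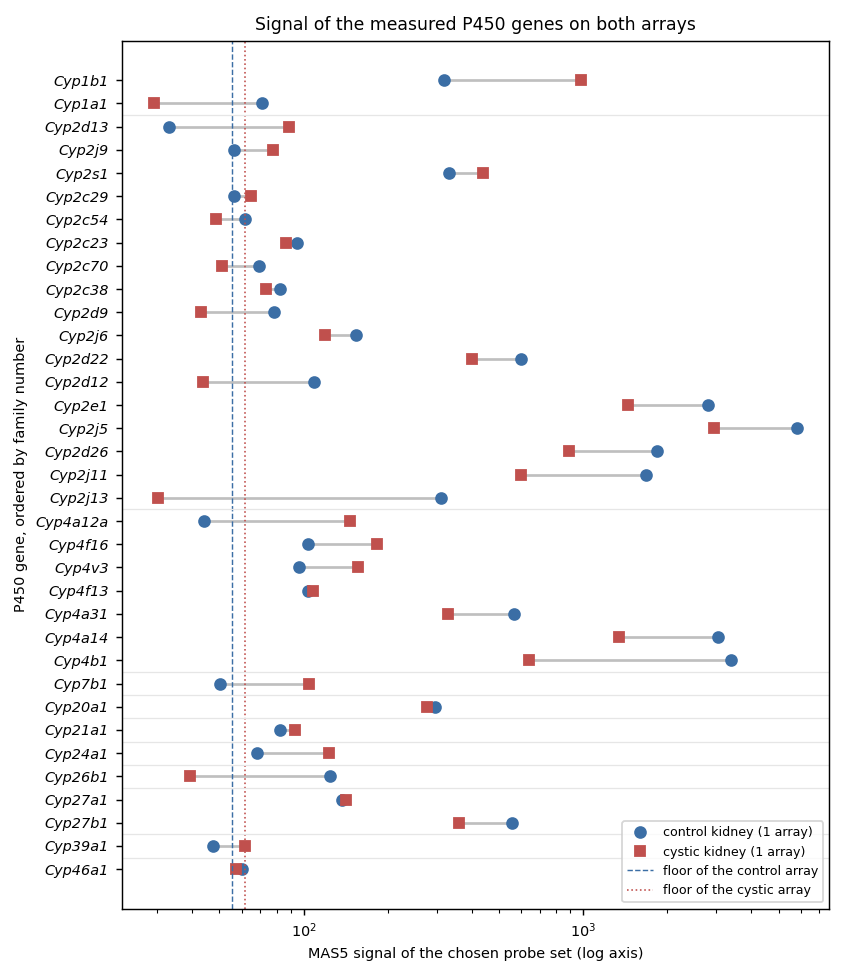
MAS5 signal (log axis) of the 35 measured P450 genes, ordered by family number, with a circle for the control array, a square for the cystic array and a line for each array's floor. Cyp4b1 goes from 3378 to 640.5 and Cyp1b1 from 318.6 to 979.9, while genes such as Cyp27a1 and Cyp4f13 lie almost on top of each other.

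The marker lists of kidney cell types differed in the size and direction of their log2 ratios. The 25 measured proximal tubule markers all lay above both floors, and 18 fell and none rose; their median log2 ratio was -1.22. The amino acid transporter Slc7a13 (-3.96), Acy3 (-2.55), the organic anion transporter Slc22a6 (-2.06) and Slc17a3 (-1.92) lay lowest, and the glucose transporter Slc5a1 (0.08) was the one above 0. Their summed signal was 109312 in control and 48136 in cystic kidney; such a sum is carried by the brightest probe sets and is read only within its list.

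Macrophage markers rose in 11 of 12 genes, with a summed signal of 2271 in control and 11161 in cystic kidney, and the highest log2 ratios were those of lysozyme Lyz2 (4.00), the complement genes C1qc (3.83) and C1qa (3.48), and Mrc1 (3.25). Fibroblast and smooth muscle markers rose in 11 of 11, with sums of 6856 and 30243, led by Tagln (3.81), the collagen gene Col1a1 (2.85), Vim (2.46) and the smooth muscle actin Acta2 (2.42).

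In the remaining lists of kidney cells the medians were smaller in size than the -1.22 of the proximal tubule markers. Single genes, Calb1, Pvalb and Slc4a1, still fell further than that median. Of the 8 genes of the thick ascending limb and distal tubule 2 fell, Calb1 (-2.03) and Pvalb (-1.97), 1 rose, Cldn19 (1.10), and the median log2 ratio was -0.28; Slc12a3 (-0.94), Slc12a1 (-0.32), Kcnj1 (-0.24), Umod (-0.09) and Cldn16 (0.99) did not pass 2-fold, and the sums were 24374 and 17356. Of the 8 collecting duct genes Slc4a1 (-2.14) and Slc26a4 (-1.21) fell and no gene rose; the median was -0.37 and the sums were 4814 and 4408. The water channel genes Aqp3 (-0.75) and Aqp2 (0.29), the sodium channel subunits Scnn1g (0.94) and Scnn1b (0.65), and Foxi1 (-0.56) did not pass it. None of the 7 endothelial markers passed 2-fold; they ran from Tek and Kdr (-0.13) and Emcn (-0.07) to Tie1 (0.41), Cdh5 (0.41), Pecam1 (0.43) and Eng (0.94), with a median of 0.41 and sums of 2640 and 3257. None of the measured markers was at 0. In whole kidney RNA fewer cells of a type and less RNA per cell cannot be told apart, and the part of cell makeup in the P450 differences was not tested.

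**Figure D2:**
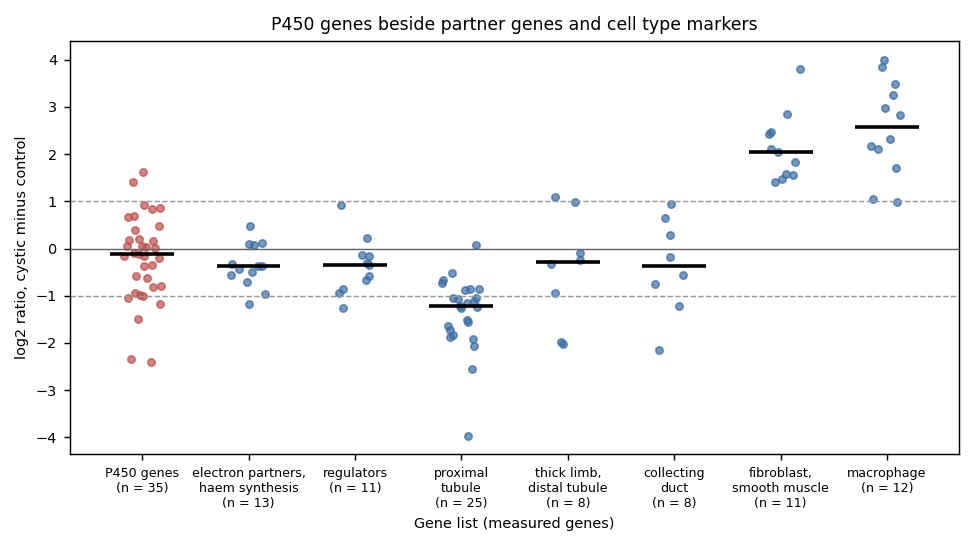
Log2 ratio (cystic minus control) of each measured gene for the P450 genes, their partners and regulators, and marker lists of kidney cell types, with a bar at each median and dashed lines at 2-fold. The P450 genes spread from -2.40 to 1.62 around a median of -0.12, the proximal tubule markers have a median of -1.22, and the fibroblast and macrophage markers lie above 0.

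Fatty acid hydroxylases of family Cyp4 went both ways. Of the 12 genes of the family 7 were measured. Of these 2 fell (28.6%, against 3.78% of all measured genes) and 1 rose (14.3%, against 7.06%). The median log2 ratio was 0.05. That median was -0.11 with median centring, -0.15 with quantile normalization and -0.10 with loess, so it gives the family no direction. Cyp4b1, which hydroxylates medium-chain fatty acids and activates some foreign compounds in lung and kidney, had a signal of 3378 in control and 640.5 in cystic kidney. This was 5.27-fold lower, a log2 ratio of -2.40, read by 1 probe set. It was the lowest log2 ratio of the P450 genes above both floors. The log2 ratio of Cyp2j13 (-2.33) is a bound, and with no floor it was -3.36.

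The Cyp4a enzymes hydroxylate the end of fatty acid chains, arachidonic acid included, and are targets of the fatty acid receptor PPAR alpha. Cyp4a14 had signals of 3047 in control and 1344 in cystic kidney and fell 2.27-fold. Cyp4a31 had signals of 564 and 328 at its brightest probe set, a log2 ratio of -0.78, and of 186 and 72.6 at its second, a log2 ratio of -1.36, so its probe sets lay on either side of 2-fold. A further probe set named both Cyp4a31 and Cyp4a10 and is no member; its signals were 6300 and 3384, a log2 ratio of -0.90. Cyp4a12a, a hydroxylase that makes 20-HETE, a constrictor of small arteries, was under the floor in the control at 44.1 and had 147 in the cystic kidney, at least 2.65-fold higher. Cyp4a12a and Cyp4a12b are near-identical copies, so which of them the probe set reads is uncertain. Within the subfamily Cyp4a, then, 2 genes were lower and the third was higher in the cystic kidney.

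The Cyp4f enzymes inactivate leukotrienes and hydroxylate long fatty acids. Cyp4f16 had signals of 103 in control and 184 in cystic kidney, a log2 ratio of 0.83, and Cyp4f13 had 104 and 108. Cyp4v3, whose human counterpart CYP4V2 is mutated in a retinal dystrophy, had 96.4 and 156 at its brightest probe set, a log2 ratio of 0.70, and a bound of 0.22 at its second. None of these passed 2-fold. Cyp4f14, Cyp4f15, Cyp4f18, Cyp4f39 and Cyp4x1 were under the floor on both arrays.

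In family Cyp2, the largest, 17 of 35 genes were measured. Of them 3 fell (17.6%, against 3.78% of all measured genes) and none rose (against 7.06% of all). The median log2 ratio was -0.34, the value of Cyp2d9, which is a bound. Of the 17, 11 reached both floors, 5 were read on the control array only and 1 on the cystic array only. Over those 11 the median was -0.37, with 8 below 0 and 3 above 0. The arachidonic acid epoxygenases of family Cyp2 lie in the subfamilies Cyp2j and Cyp2c. All 5 Cyp2j genes on the array were measured, with a median log2 ratio of -0.99, and 2 of them fell. Cyp2j5, an epoxygenase abundant in mouse kidney whose products act on blood vessels and salt transport, had signals of 5834 in control and 2946 in cystic kidney, just under 2-fold with a log2 ratio of -0.99. Its second probe set had 1815 and 811, a log2 ratio of -1.16. Cyp2j11 had signals of 1679 in control and 598 in cystic kidney and fell 2.81-fold. Cyp2j13 had 311 in control and 30.2, under the floor, in cystic kidney, and was at least 5.02-fold lower. The last 2 genes differed less: Cyp2j6 had signals of 155 and 120, a log2 ratio of -0.37 and, at the second probe set, -0.97, and Cyp2j9 had 56.4 and 78, a log2 ratio of 0.47 near the floor. In the GRCm38.p6 gene order these 5 genes lie in 1 cluster on chromosome 4, where Cyp2j9 is flanked by Cyp2j6 and Cyp2j5, so direct neighbours had different log2 ratios.

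The Cyp2c genes, which include epoxygenases and, in liver, many drug-metabolising enzymes, gave little signal. Of 11 genes 5 were measured, all between 48.7 and 94.5 on both arrays, with log2 ratios from -0.16 to 0.21. Cyp2c23, also known as Cyp2c44, is a renal epoxygenase, and its signals were 94.5 in control and 86.8 in cystic kidney. Cyp2c38 had 82.2 and 73.5, Cyp2c70 69.2 and 50.9, and Cyp2c29 56.3 and 65. Cyp2c54 went from 61.6 to 48.7, both under the cystic floor, so its log2 ratio of 0.01 shows no rise. None of the measured Cyp2c genes was far from its floor.

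Of the enzymes known mainly for foreign compounds, 25 genes of families Cyp1, Cyp2 and Cyp3 were on the array and 9 were measured. Of these 1 fell and 1 rose (11.1% each, against 3.78% and 7.06% of all measured genes). Cyp1b1 oxidises polycyclic hydrocarbons, oestrogens and retinoids and is found in mesenchymal cells and tumours. Its signals were 319 in control and 980 in cystic kidney, 3.08-fold higher, and its second probe set had 105 and 255, 2.42-fold higher. Its relative Cyp1a1, the classical target of the Ah receptor, went from 70.7 to 29.1, under the floor, and was at least 1.14-fold lower; Cyp1a2 was under the floor on both arrays. Family Cyp1 thus held a gene that rose at both of its measured probe sets and a gene whose difference was only bounded.

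Cyp2d26, of a subfamily that oxidises many drugs, had signals of 1839 in control and 890 in cystic kidney and fell 2.07-fold, read by 1 probe set. Cyp2d22 had 601 and 400, a log2 ratio of -0.59 (-0.28 at the second probe set). Cyp2d12 (109 to 43.7) and Cyp2d9 (78.3 to 43) were measured on the control array only and were at least 1.76-fold and 1.26-fold lower. Cyp2d13, with 32.9 in control and 88.3 in cystic kidney, was at least 1.59-fold higher. Cyp2e1, which oxidises ethanol, acetone and other small molecules, had signals of 2798 in control and 1451 in cystic kidney, 1.93-fold lower and short of 2-fold. Cyp2s1, an enzyme of epithelia outside the liver, had 332 and 438, a log2 ratio of 0.40. A probe set that named both Cyp2a5 and Cyp2a4, and is no member, had 209 and 77.7, 2.69-fold lower.

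All 5 Cyp3a genes, all 4 Cyp2b genes and Cyp2a12, Cyp2c37, Cyp2c50, Cyp7a1 and Cyp8b1 were under the floor on both arrays. Of the liver markers in a list with 10 genes on the array, 4 were measured and none passed 2-fold. Serpina1b, a protease inhibitor gene, had the highest signals of these, 197 in control and 256 in cystic kidney, a log2 ratio of 0.38 (0.78 at the second probe set). The albumin gene Alb had 65.8 and 91.7, Apoa2 had 78.6 and 42, and Cps1 had 60.8 and 47.8. Their summed signal was 402 and 437. Further members under the floor were Cyp2c39, Cyp2c55, Cyp2c65, Cyp2c68, Cyp2d10, Cyp2d34, Cyp2d40, Cyp2f2, Cyp2g1 and Cyp2u1. Across all roles, 36 P450 genes were under the floor on both arrays.

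**Figure D3:**
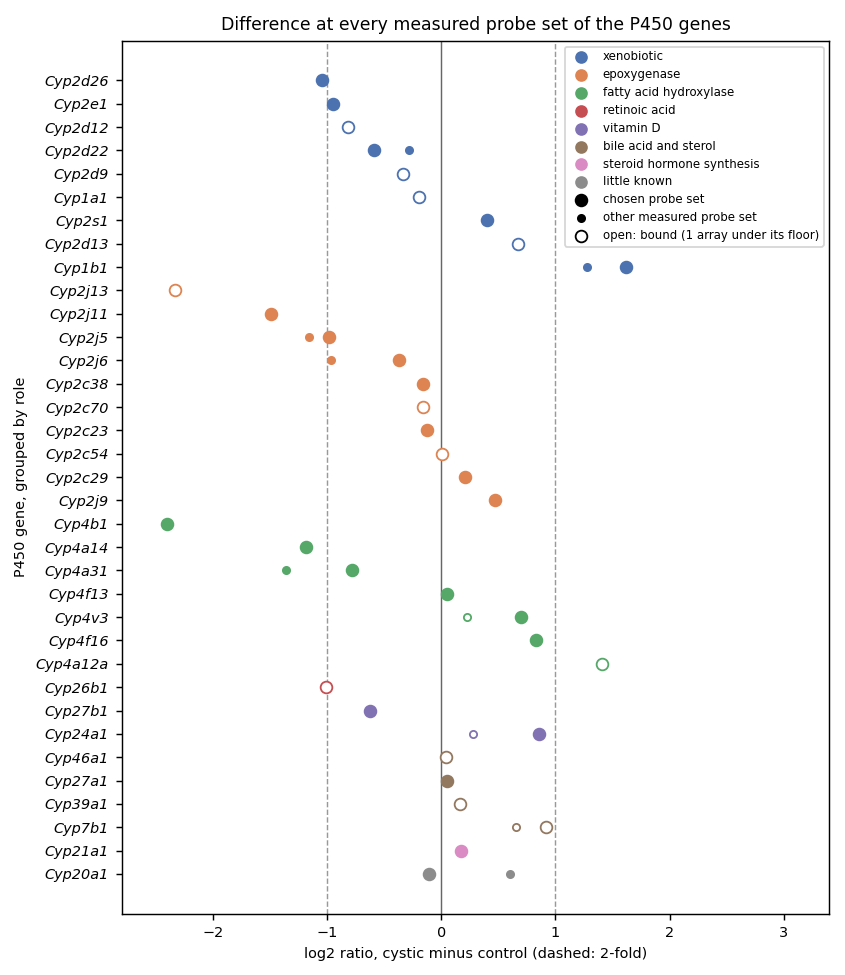
Log2 ratio (cystic minus control) at each measured probe set of the P450 genes, grouped and coloured by role, with large points for the probe set that stands for the gene, small points for others, open points for bounds and dashed lines at 2-fold. The points furthest to the left are Cyp4b1 and Cyp2j13 at -2.40 and -2.33, and the points furthest to the right are Cyp1b1 and Cyp4a12a at 1.62 and 1.41.

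The vitamin D enzymes had log2 ratios of opposite sign, neither past 2-fold. Cyp27b1, the 1-alpha hydroxylase that makes the active hormone in the proximal tubule, had signals of 555 in control and 360 in cystic kidney, a log2 ratio of -0.62. Cyp24a1, the 24-hydroxylase that breaks the hormone down, had 68.3 and 123.7, a log2 ratio of 0.86, and a bound of 0.27 at its second probe set. Cyp2r1, a 25-hydroxylase of the liver, was under the floor on both arrays. Other genes of vitamin D handling were read from a list of 12, of which 4 are themselves P450 genes. The endocytic receptors Lrp2 and Cubn, which take up vitamin D with its binding protein, fell with log2 ratios of -1.22 and -1.04, and the FGF23 co-receptor Kl fell with -1.18. The receptor Vdr had -0.85 (-0.86 at the second probe set). Over the 8 measured genes of that list 3 fell (37.5%, against 3.78% of all measured genes) and none rose. The median of the 8 was -0.89. Lrp2 and Cubn are also counted among the proximal tubule markers above, so the lists are not separate.

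Cyp26b1 breaks down retinoic acid. It had a signal of 125 in control and 39.3, under the floor, in cystic kidney, at least 2.01-fold lower, which lies just inside the 2-fold limit. Cyp2j5, at 1.98-fold lower, was the gene just outside it. Cyp26a1 was under the floor on both arrays.

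Among the enzymes of bile acids and sterols 4 of 6 were measured and none passed 2-fold. Cyp7b1, which hydroxylates oxysterols and steroids, had signals of 50.2 in control and 104.9 in cystic kidney, at least 1.89-fold higher, and at least 1.58-fold higher at its second probe set. Cyp27a1, the mitochondrial sterol 27-hydroxylase, had 138 and 142. Cyp39a1 (47.5 and 61.9) and Cyp46a1 (60.1 and 57.4) lay near the floor; both values of Cyp46a1 are under the cystic floor, so its log2 ratio of 0.04 shows no rise. Cyp20a1, whose substrates are little known, had log2 ratios of -0.10 and 0.60 at the brightest and the second probe set. Its probe sets therefore differed in sign.

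The steroid hormone enzymes were read with markers of the adrenal gland, which lies beside the kidney. Cyp11a1, Cyp11b1, Cyp11b2 and Cyp17a1, which carry out steps of steroid synthesis in adrenal or gonad, were under the floor on both arrays. Cyp21a1, the adrenal 21-hydroxylase, had signals of 82.2 and 92.8. Of 11 adrenal markers on the array, 3 of them members, 4 were measured. Their summed signal was 257 in control and 365 in cystic kidney, and the 1 that rose was Pnmt, the enzyme that makes adrenaline, at least 2.36-fold higher (39.7 to 131). Star had a log2 ratio of 0.31 and Dbh of -0.16.

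The P450 partners were read from a list of 16 electron carriers and haem synthesis genes, of which 13 had a probe set of their own and all 13 were measured. Of them 1 fell and none rose, and the median log2 ratio was -0.38, with 9 genes below 0 and 4 above 0. The highest was Cyb5r3, with signals of 1061 in control and 1472 in cystic kidney. Its log2 ratio was 0.47 (0.73 at the second probe set). Cyb5a, cytochrome b5, had signals of 5897 in control and 3006 in cystic kidney, a log2 ratio of -0.97, and the mitochondrial ferredoxin Fdx1 had 2309 and 1411, a log2 ratio of -0.71. The gene that fell was Cpox, of haem synthesis, with log2 ratios of -1.18 and -0.58 at its brightest and second probe set. Alas1, which controls the rate of haem synthesis, had log2 ratios of 0.12 and -0.26 at its brightest and second probe set, which differed in sign. P450 reductase itself was not analysed here.

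Of 19 receptors and transcription factors that control P450 genes, 11 were measured, 1 fell and none rose; they had a median log2 ratio of -0.34. Nr1h4, the bile acid receptor FXR, had signals of 592 in control and 248 in cystic kidney and fell 2.39-fold. Hnf4a, which drives many genes of liver and proximal tubule, had -0.94 in log2 (-1.25 at the second probe set), and Ppara, the receptor PPAR alpha, had -0.66 (-0.69 at the second probe set). Ahr, the Ah receptor, had 142 and 267, a log2 ratio of 0.92 (0.62 at the second probe set).

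Enzymes that supply or remove the same lipids were read from a list of 12, with 9 measured, 1 lower and 2 higher. Ephx2, the soluble epoxide hydrolase that breaks down the epoxides made by Cyp2c and Cyp2j enzymes, had signals of 1523 in control and 615 in cystic kidney and fell 2.48-fold. Pla2g4a, the phospholipase that releases arachidonic acid, had 123 and 301 and rose 2.45-fold. Ptgis, the prostacyclin synthase, itself a P450 enzyme by structure but not by its symbol, had 73 and 175 and rose 2.40-fold. Cyp51, which the rule leaves out, had log2 ratios of -1.94 and -1.88 at its 2 measured probe sets.

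Most of the measured genes known to differ by sex in mouse kidney had a log2 ratio below 0. From textbook knowledge 11 genes higher in males were listed, 10 of them measured, and 5 fell and 1 rose. Of these 10, 8 were below 0, among them all 6 that reached both floors. Cyp4b1 and Cyp2j13 fell with the non-members Slc7a13, Acsm3 and Slco1a1. Cyp2e1 (-0.95) and Odc1 (-0.83, and -1.13 at the second probe set) were lower but short of 2-fold at the brightest probe set. The 2 above 0 were Cyp4a12a, which rose, and Cyp7b1, with 0.92, both bounds with the control under its floor. Slc7a13 is also one of the proximal tubule markers given above. Kap, the kidney androgen-regulated protein, had 10585 in control and 9167 in cystic kidney, a log2 ratio of -0.21 (-0.67 at the second probe set). Of the genes listed as higher in females both measured ones fell, Cyp4a14 and the transporter Slc7a12 (2281 to 989). Whether these differences go with sex or with the mutation cannot be told apart on 2 arrays.

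RefSeq promoters matched 51 of the 71 members by gene identifier, and 23 of the 35 measured ones, among them 5 of the 6 genes that fell. The 250 bases before each start were searched on both strands. The Ah receptor core GCGTG was found in 9 of 24 windows of measured members (37.5%), against 28.2% of all 32851 windows in the table. The 24 windows belong to 23 genes: Cyp2j13 has 2 windows, both hold the core, and both count among the 9. Over the 58 windows of all members the core was in 13 (22.4%), below the share of all windows. Cyp1b1 holds it at positions -76 to -72 from the start, Cyp1a1 at -54 to -50 and Cyp2j13 at -68 to -64, so it was present in a gene that rose and in a gene that fell. The nuclear receptor element AGGTCA was in 3 of 24 windows (12.5%), against 14% of all, and in 13 of the 58 windows of all members (22.4%). It was in the window of Cyp2j5 but in none of the 6 windows of the 5 matched genes that fell. The sequence CAAAGTC, which HNF4 binds, was in 3 of 24 (12.5%), against 3.84% of all windows. It was in 14 of the 58 windows of all members (24.1%), most of them genes under the floor in these kidneys. The HNF1 element GTTAAT was in 1 of 24 (4.17%), that of Cyp2d26, against 6.43% of all. No member's window held AGGTCA in direct repeat with 1 or 3 bases between, and the windows shown for Cyp4b1 and Cyp2j11 held none of the motifs.

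Of the 8 genes past 2-fold, 5 stayed past it in the same direction under all 8 alternative settings: Cyp4b1, Cyp2j13, Cyp2j11, Cyp4a14 and Cyp1b1. Cyp26b1 and Cyp4a12a, both bounds, were under 2-fold with the floor at the 60th percentile, with log2 ratios of -0.31 and 0.74. Cyp2d26 was under 2-fold with quantile normalization and with loess, at -0.95 in both.

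**Figure D4:**
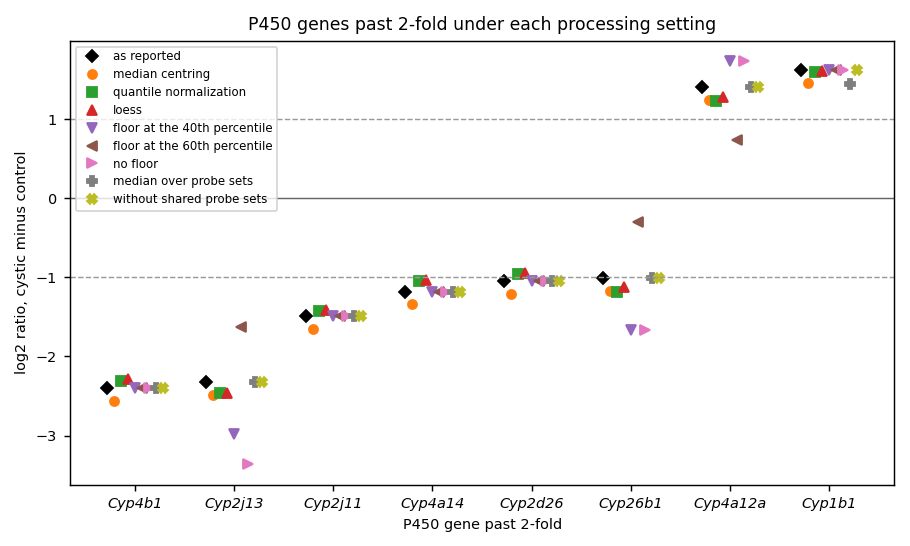
Log2 ratio (cystic minus control) of the 8 P450 genes past 2-fold, as reported and under 8 other processing settings, with dashed lines at 2-fold. Cyp4b1 stays between -2.56 and -2.28, whereas the bounds Cyp2j13, Cyp26b1 and Cyp4a12a move with the floor.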

How the data were processed

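RNA of 1 control and 1 cystic kidney array was analysed from the deposited table, grouped by sample title. Its values are an intensity, the linear signal that the authors computed with MAS5, per the submitters' processing notes; for its version, scaling target and detection calls nothing was given in the sources used here. Of 45101 probe sets 64 controls were left out. Of the rest, 34945 named 1 gene in the platform annotation, 932 several and 9160 none, and gene identifiers gave the current symbols from RefSeq (GRCm38.p6). The deposited scaling was kept (2% trimmed means of 178 and 181). Per gene the probe set with the highest mean floored log2 signal was used. The steps ran in Python 3.11.15 with pandas 2.3.3 and were tested on simulated data.

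With 1 array per group no test was run, and a fixed 2-fold limit takes its place. By the rule for names, every measured member was named, of the gene lists those past 2-fold, of the marker lists up to 4 with the largest log2 ratio in each direction, and all sex chromosome genes listed with a probe set of their own; other genes named were chosen after their values were seen. Members and lists were chosen with earlier results of these data known. Alternatives changed the scaling (median centring, quantile normalization, loess with a span of 0.4), the floor (40th percentile, 60th percentile, none) and the probe sets (median over probe sets, no shared ones).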

Additional observations from a re-analysis of the deposited data

Results flagged for a closer look

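A signal appeared in a probe set that the comparison of members does not use, because it names 2 genes. The probe set of Cyp4f37 and Cyp4f16 had 80.7 in control and 181.6 in cystic kidney, a log2 ratio of 1.17, or 2.25-fold higher, while the probe set of Cyp4f16 alone had a log2 ratio of 0.83. Which of these genes it reads was not examined.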

How the results depend on the processing

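No paired analysis was possible because each group has 1 array, and no replicate could be left out. The count of P450 genes that rose was 2 as reported, 4 with the floor at the 40th percentile, 1 with the floor at the 60th and 7 with no floor, and the count that fell was 6 as reported and 10 with no floor. Under the other settings the first stayed at 2 and the second between 5 and 8. The measured P450 genes numbered 35 as reported, 47 at the lower floor, 24 at the higher and 71 without one. Their shares that rose were 5.71%, 8.51%, 4.17% and 9.86%, against 7.06%, 7.27%, 6.06% and 11.5% of all measured genes. Among these choices of floor, only the lower put the share that rose above that of all genes. Their shares that fell were 17.1%, 14.9%, 20.8% and 14.1%, against 3.78%, 3.79%, 3.84% and 9.17%. The median of the Cyp2 genes was -0.34 as reported and -0.91 with the floor at the 60th percentile, where fewer dim genes count as measured. With median centring the median over all measured genes was -0.07 in place of 0.09, and 47.5% of all genes past 2-fold were higher in place of 65.1%. There Cyp2e1 and Cyp2j5 joined the genes that fell, which then numbered 8. No P450 gene past 2-fold changed sign under any of the 8 alternatives.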
